A study of Homo sapiens with 18 samples.

Results

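TLE3 binding was compared between T47D and MDA-MB-453, a pair of established human luminal breast cancer cell lines, from chromatin immunoprecipitation followed by sequencing (ChIP-seq). T47D carries the estrogen and progesterone receptors, whereas MDA-MB-453 lacks the estrogen receptor and is of an apocrine luminal type. Both lines were kept as the cell bank ATCC recommends, with no treatment named in the labels, and each was immunoprecipitated for TLE3 and, separately, for FOXA1 in 2 replicates that the labels call biological. The series, which maps TLE3 and its co-binding with FOXA1 in luminal lines, also holds the ERBB2-amplified line SKBR3, used here only as an outside reference. A TLE3 site is a region where peaks of both replicates of a line overlap. A shared site overlaps a site of the other line by at least 1 bp, a specific site overlaps no peak of either replicate of the other line, and the remaining sites overlap a peak of a single replicate of the other line. The 4 TLE3 lists held 156965 of the 1134194 peaks in the 12 lists of the series, and they gave 28354 sites in T47D and 21768 in MDA-MB-453, or 38452 regions once merged.

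TLE3 is a corepressor of the Groucho/TLE family. It does not read DNA itself, is brought to chromatin by partner transcription factors such as the forkhead, RUNX, HES and TCF proteins, and recruits histone deacetylases. FOXA1 is a forkhead pioneer factor that opens chromatin in luminal breast cells and at whose sites steroid hormone receptors bind.

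The lists hold no read counts, so the depth of each library is unknown. T47D TLE3 replicates 1 and 2 had 30170 and 61391 peaks, and MDA-MB-453 TLE3 replicates 1 and 2 had 42698 and 22706. Most comparisons were therefore repeated with each list shortened to its 22706 highest scored peaks, called equal length below. At equal length, 82.4% to 84.1% of the peaks of a list overlapped the other replicate of the same line, and 46.4% to 48.1% overlapped a list of the other line. Each line is 1 tumour-derived culture, so receptor status cannot be told apart from anything else that differs between the lines. Nothing says whether the replicates came from separate cultures, and p-values measure only the spread between these libraries. Since a site needs peaks of both replicates, the specific and shared peaks of both replicates of a line lie on the same sites. Agreement between replicates in values given by class, and the SDs of such values, partly reflect that common set of sites. With 2 libraries against 2 an exact permutation test has 6 arrangements and cannot go below 0.333, and a sign-flip test over 4 libraries has 16 and cannot go below 0.125, so no test here could reach 0.05.

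The promoters under TLE3 sites differed in letters between the classes, and 8 are printed as examples. Each is the 250 bases before a gene's start, 5′ to 3′ on the gene's strand, from RefSeq on GRCh38.p14 (the files' build is hg38). Capitals mark the forkhead letters TGTTTAC or TATTTAC or their reverse complements, and a match describes the letters, not a binding site. The 8 promoters were chosen after their values and letters were seen, and MYT1 was chosen because it held the forkhead letters. They therefore do not show how frequent the letters were in a class. The first pair lay under T47D-specific TLE3 sites with no FOXA1 site of either line, where a FOXA1 site, like a TLE3 site, needs peaks of both replicates. B4GALT4 (chr3:119240879-119241128, minus strand) encodes a galactosyltransferase and was the highest ranked of its kind, and HBEGF (chr5:140346604-140346853, minus strand) encodes a ligand of the epidermal growth factor receptor.
B4GALT4: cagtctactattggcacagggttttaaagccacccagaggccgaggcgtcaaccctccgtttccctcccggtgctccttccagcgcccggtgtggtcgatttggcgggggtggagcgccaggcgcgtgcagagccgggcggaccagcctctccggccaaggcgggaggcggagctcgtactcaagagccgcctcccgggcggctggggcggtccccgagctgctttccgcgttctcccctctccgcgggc
HBEGF: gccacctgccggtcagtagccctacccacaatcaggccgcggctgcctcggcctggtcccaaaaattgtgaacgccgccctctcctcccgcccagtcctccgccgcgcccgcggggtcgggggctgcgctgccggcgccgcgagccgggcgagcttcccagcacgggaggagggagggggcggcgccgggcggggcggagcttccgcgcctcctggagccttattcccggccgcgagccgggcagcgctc
The second pair lay under T47D-specific TLE3 sites with a T47D FOXA1 site. PGR (chr11:101129064-101129313, minus strand) encodes the progesterone receptor, and RNF43 (chr17:58402722-58402971, minus strand) a ubiquitin ligase that removes WNT receptors.
PGR: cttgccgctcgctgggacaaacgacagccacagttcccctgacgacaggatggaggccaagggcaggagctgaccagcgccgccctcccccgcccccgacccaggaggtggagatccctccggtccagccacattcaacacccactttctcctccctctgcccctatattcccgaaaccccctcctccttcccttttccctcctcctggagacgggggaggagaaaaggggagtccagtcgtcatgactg
RNF43: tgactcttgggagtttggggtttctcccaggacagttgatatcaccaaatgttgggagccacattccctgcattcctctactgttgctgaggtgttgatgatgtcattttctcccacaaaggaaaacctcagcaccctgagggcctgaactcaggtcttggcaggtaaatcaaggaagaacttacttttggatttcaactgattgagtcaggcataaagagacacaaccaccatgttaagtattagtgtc
The third pair lay under MDA-MB-453-specific TLE3 sites with an MDA-MB-453 FOXA1 site. IGFL4 (chr19:46041003-46041252, minus strand) encodes a secreted protein of the insulin growth factor-like family, and MYT1 (chr20:64164202-64164451, plus strand) a zinc finger factor of neural cells. The MYT1 site also overlapped a T47D FOXA1 site.
IGFL4: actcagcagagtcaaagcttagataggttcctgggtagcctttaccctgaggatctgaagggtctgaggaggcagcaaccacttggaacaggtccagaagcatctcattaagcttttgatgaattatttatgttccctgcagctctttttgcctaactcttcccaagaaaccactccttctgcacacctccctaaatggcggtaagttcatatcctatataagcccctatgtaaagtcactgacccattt
MYT1: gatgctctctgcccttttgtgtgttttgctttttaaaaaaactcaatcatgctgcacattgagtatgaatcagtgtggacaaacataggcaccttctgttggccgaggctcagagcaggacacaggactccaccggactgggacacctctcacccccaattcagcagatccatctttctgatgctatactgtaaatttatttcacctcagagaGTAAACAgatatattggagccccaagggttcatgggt
The fourth pair lay under shared TLE3 sites with FOXA1 in both lines. IGF1 (chr12:102481748-102481997, minus strand) encodes insulin-like growth factor 1, and UGT2B15 (chr4:68670653-68670902, minus strand) an enzyme that glucuronidates androgens.
IGF1: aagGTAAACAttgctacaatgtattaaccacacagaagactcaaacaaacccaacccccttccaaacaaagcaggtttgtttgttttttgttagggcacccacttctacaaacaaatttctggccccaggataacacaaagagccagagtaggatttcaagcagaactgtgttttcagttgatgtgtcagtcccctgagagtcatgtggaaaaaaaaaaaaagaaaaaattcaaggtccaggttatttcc
UGT2B15: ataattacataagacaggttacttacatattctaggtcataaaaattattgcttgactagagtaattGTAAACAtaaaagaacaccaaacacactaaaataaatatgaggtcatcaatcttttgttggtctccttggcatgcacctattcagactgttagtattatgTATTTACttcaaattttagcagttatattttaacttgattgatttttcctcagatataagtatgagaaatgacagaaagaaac

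Over all 34961 RefSeq promoters (300 bases, from 250 before to 50 after the start), 3013 overlapped a T47D-specific TLE3 site (8.62%), 682 a shared site (1.95%) and 50 an MDA-MB-453-specific site (0.143%). The median GC content was 58.7% over all promoters, 68.3% under T47D-specific sites, 62.7% under shared sites and 44.5% under MDA-MB-453-specific sites. The lower and upper quartiles were 62% and 73.7% under T47D-specific and 40.2% and 51.5% under MDA-MB-453-specific sites. Of the printed promoters, B4GALT4 and HBEGF were at 70% and 76.4%, and IGFL4 and MYT1 at 45.2% and 45.6%, but the T47D-specific RNF43 promoter was also at 45.2%. The PRDX2 promoter, not printed, lay under an MDA-MB-453-specific site and was at 75.2%. The forkhead letters on either strand were in 5.97% of all promoters, 4.18% of those under T47D-specific sites, 12.3% under shared sites and 34% under MDA-MB-453-specific sites (17 of 50). Among the promoters under T47D-specific sites, the 726 with no FOXA1 site of either line at the TLE3 site had a median GC content of 73% and held the letters in 4 cases (0.551%). The 1916 with a T47D FOXA1 site had a median of 66% and held them in 6.37%. Where T47D-specific sites without FOXA1 did overlap a promoter, it was thus usually GC-rich and seldom held the forkhead letters. At equal length the letters were in 4.98% of promoters under T47D-specific, 16.4% under shared and 31.5% under MDA-MB-453-specific sites (29 of 92), and in 0 of 319 under T47D-specific sites without FOXA1. Promoters of similar GC content were not compared.

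Other motifs were counted in the same promoters on both strands. The RUNX letters TGTGGT were in 13.1% of all promoters, 9.86% under T47D-specific, 10.4% under shared and 28% under MDA-MB-453-specific sites. The GATA letters AGATAA were in 10.3%, 3.78%, 8.5% and 14% in the same order, and the TCF letters CTTTGAA or CTTTGAT in 6.87%, 3.65%, 5.13% and 20%. The MDA-MB-453-specific values rest on 50 promoters, and at equal length, over 92, they were 15.2% for RUNX, 19.6% for GATA and 15.2% for TCF. The RUNX, GATA and TCF letters were each rarer under T47D-specific sites than over all promoters. The estrogen receptor palindrome (GGTCA and TGACC with 3 bases between) was in 20 of all promoters, of which 3 lay under T47D-specific sites.

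About 4 in 10 TLE3 sites of T47D had no TLE3 peak in MDA-MB-453. Of the 28354 T47D sites, 11354 were specific (40.0%), 11578 were shared (40.8%) and 5422 overlapped a peak of a single MDA-MB-453 replicate (19.1%). Of the 21768 MDA-MB-453 sites, 6313 were specific (29.0%), 11633 were shared (53.4%) and 3822 overlapped a peak of a single T47D replicate (17.6%). Shortening the lists brought the lines to within 1 percentage point of each other, where 8085 T47D sites (43.2%) and 8269 MDA-MB-453 sites (44.2%) were specific and 47.8% and 48.1% were shared. On the full lists T47D TLE3 replicate 2 had the most peaks of the 4 libraries. Without it, with T47D sites then from replicate 1 alone, 42.4% of T47D sites and 46.2% of MDA-MB-453 sites were specific. The MDA-MB-453 share thus moved more than the T47D share. Sites of the equal lists that had no peak even in the full lists of the other line made up 29.4% in T47D and 26.3% in MDA-MB-453.

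The highest ranked T47D-specific sites lay 14857 bp or more from the start of the gene named and on high ranked T47D FOXA1 peaks. Ranks are percentiles of the authors' peak score within a list, where 100 is the highest peak. The highest lay 68158 bp from BAIAP2L1, a membrane-bending adaptor gene (chromosome 7, 98468716 to 98469782, hg38), and ranked 99.4 and 99.9 in T47D TLE3 replicates 1 and 2. It also had FOXA1 peaks in T47D at percentiles 98.9 and 98.0 and in MDA-MB-453 at 51.3 and 51.5. The next were inside EXOC4, an exocyst subunit gene (chromosome 7, 133977279 to 133978340, percentiles 99.0 and 99.5), and inside JPH2, which encodes a junctional membrane protein (chromosome 20, 44141951 to 44143175, percentiles 98.8 and 99.3). Neither had a FOXA1 peak in MDA-MB-453. A site 120746 bp from PRLR, the prolactin receptor gene (chromosome 5, 35350684 to 35351784), ranked 98.6 and 99.5, with T47D FOXA1 percentiles of 99.2 and 99.3 and no MDA-MB-453 FOXA1 peak. A site 14857 bp from the adaptor gene SHB (chromosome 9, 38083582 to 38084588), at 98.5 and 99.6, also had no FOXA1 peak in MDA-MB-453.

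The highest ranked MDA-MB-453-specific sites lay on high ranked MDA-MB-453 FOXA1 peaks. They lay inside CTNNA2, a neuronal catenin gene (chromosome 2, 79814790 to 79815708, percentiles 99.6 and 99.1 in MDA-MB-453 TLE3 replicates 1 and 2), and inside EPAS1, which encodes the hypoxia factor HIF-2 alpha (chromosome 2, 46355417 to 46356092, percentiles 99.4 and 99.2). Both had MDA-MB-453 FOXA1 peaks at percentiles of 98.4 to 99.7 and no T47D FOXA1 peak. A site 327277 bp from NDN, an imprinted growth suppressor gene (chromosome 15, 24014202 to 24014963), ranked 99.3 and 99.0 and again had no T47D FOXA1 peak. A site inside MIPOL1 (chromosome 14, 37471774 to 37472440), at 99.2 and 98.9, had T47D FOXA1 peaks at percentiles 55.0 and 40.7 against 99.4 and 99.4 in MDA-MB-453. The third by rank, 17316 bp from the uncharacterised gene LOC122319696 on chromosome X, had FOXA1 peaks at percentiles 58.9 and 22.1 in T47D and 99.8 and 99.8 in MDA-MB-453.

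The highest ranked shared sites had FOXA1 near the top of all 4 FOXA1 lists. They lay inside the potassium channel gene KCNH5 (TLE3 percentiles 99.99 and 99.99 in T47D, 99.99 and 100 in MDA-MB-453), near the lipid phosphatase gene PLPP3 (all 4 at 99.9 to 99.96), inside the cytokine gene TNFSF8, inside MITF and near the matrix gene HMCN1. Over all 5 of these sites the TLE3 percentiles were 99.8 to 100 and the FOXA1 percentiles 98.7 to 99.99.

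FOXA1 of the other line was present at most shared sites and at about 1 in 2 or fewer of the specific ones. In T47D, 50.2% and 51.6% of the specific peaks of TLE3 replicates 1 and 2 overlapped an MDA-MB-453 FOXA1 site, against 98.7% and 99.3% of shared peaks. In MDA-MB-453, 35.9% and 35.5% of specific peaks overlapped a T47D FOXA1 site, against 96.2% and 96.0% of shared peaks. Specific peaks were lower in 4 of 4 libraries, by 54.3 percentage points on average (exact two-sided sign-flip permutation p = 0.125, the smallest possible; adjusted p = 0.375 by Benjamini-Hochberg over 6 tests). Both replicates of a line were scored on the same sites, so these are not 4 independent values. A shared peak also lies, by definition, at a TLE3 site of the other line. FOXA1 of the own line was at 95.9% and 96.3% of shared T47D peaks and 99.3% of shared MDA-MB-453 peaks in both replicates. The high shared values therefore follow largely from how the classes were defined, and the test adds little to that. With the shortened lists the T47D values were 64.5% and 65.7% for specific and 99.5% and 99.8% for shared peaks, and those of MDA-MB-453 were 54.7% and 54.3% against 98.1% and 98.0%.

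Over sites, FOXA1 divided the T47D-specific class into 4 groups. FOXA1 sites of both lines were at 5289 of 11354 T47D-specific TLE3 sites (46.6%), of T47D alone at 3412 (30.1%), of MDA-MB-453 alone at 577 (5.08%) and of neither line at 2076 (18.3%). Among 6313 MDA-MB-453-specific sites, FOXA1 of MDA-MB-453 alone was at 4007 (63.5%), of both lines at 2266 (35.9%), of T47D alone at 0 and of neither at 40 (0.634%). Shared sites had FOXA1 of both lines at 96.1% and of neither at 0.51%. A site of TLE3 outside FOXA1 was thus far more frequent in the T47D-specific class than in either other class. With a FOXA1 peak of 1 replicate counted as well, the share of T47D-specific sites with FOXA1 of neither line was 8.58%, and 3.53% at equal length. In the equal length lists the T47D-specific shares were 62.1% both, 24.6% T47D alone, 3.62% MDA-MB-453 alone and 9.66% neither, and the MDA-MB-453-specific shares were 54.7%, 0%, 45.1% and 0.206%.

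**Figure D1:**
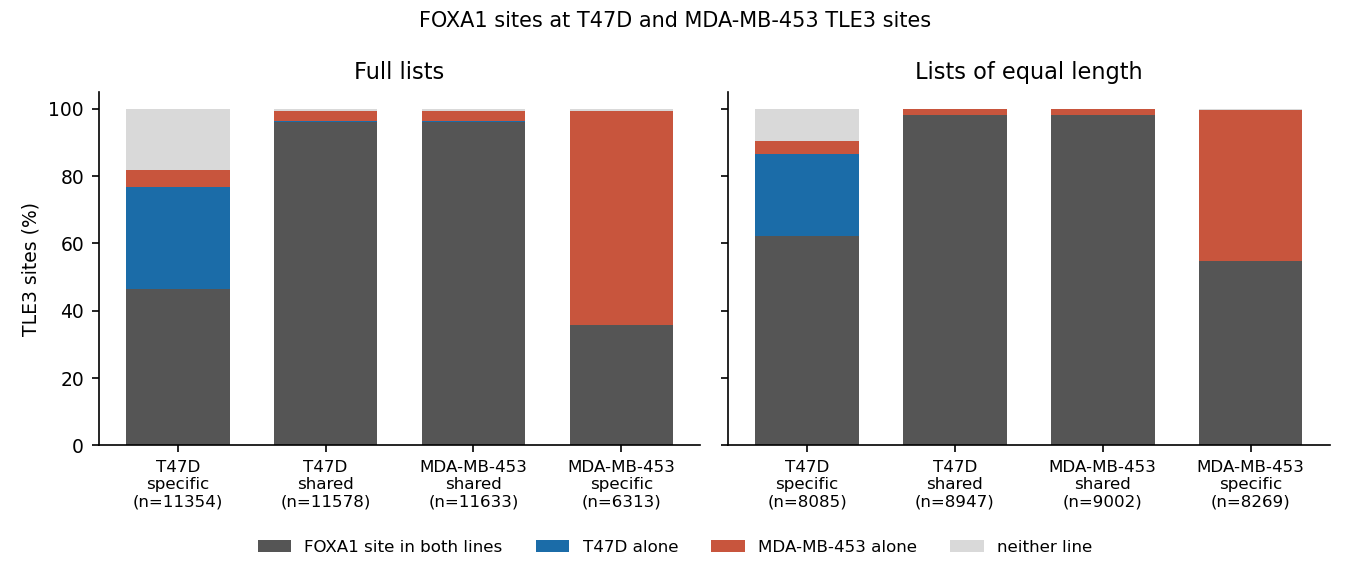
Percent of TLE3 sites (vertical axis) of each class with a FOXA1 site of both lines, 1 line or neither, on full lists (left) and lists of equal length (right), with the number of sites under each bar. Shared bars are almost all FOXA1 of both lines, MDA-MB-453-specific bars divide between both lines and MDA-MB-453 alone, and the T47D-specific bars add 18.3% (full) or 9.66% (equal length) with neither.

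The shares of all TLE3 peaks on FOXA1 of their own line moved with list length. They were 85.0% and 71.2% in T47D (78.1% ± 9.73, SD, n = 2) and 96.7% and 98.5% in MDA-MB-453 (97.6% ± 1.24, SD, n = 2), so the lines did not overlap. The difference was −19.5 percentage points (exact two-sided permutation p = 0.333, the smallest possible; adjusted p = 0.4). With equal lists the T47D values were 89.9% and 90.1%, those of MDA-MB-453 were 99.6% and 98.5%, and the difference was −9.06 points. Outside gene ends, defined below, it was 81.6% in T47D and 98.2% in MDA-MB-453 on average.

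FOXA1 peaks ranked higher where TLE3 was specific to their own line. In the T47D FOXA1 lists the median percentile was 76.9 and 77.3 (replicates 1 and 2) at T47D-specific TLE3 sites, 53.5 and 55.3 at MDA-MB-453-specific sites, and 92.5 and 91.7 at shared sites. In the MDA-MB-453 FOXA1 lists it was 58.0 and 53.9 at T47D-specific sites, 89.4 and 87.1 at MDA-MB-453-specific sites and 94.4 and 93.0 at shared sites. The order of the specific classes thus turned between the lines, and shared sites were highest in all 4 lists. A FOXA1 peak at a T47D-specific TLE3 site outranked one at an MDA-MB-453-specific site with a probability of 0.699 and 0.690 in the T47D lists (0.694 ± 0.00639, SD, n = 2) and 0.115 and 0.128 in the MDA-MB-453 lists (0.122 ± 0.00925, SD, n = 2), where 0.5 is no difference. The difference of 0.573 had an exact two-sided permutation p = 0.333, the smallest possible (adjusted p = 0.4). With TLE3 lists of equal length it was 0.705 and 0.689 against 0.134 and 0.147.

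**Figure D2:**
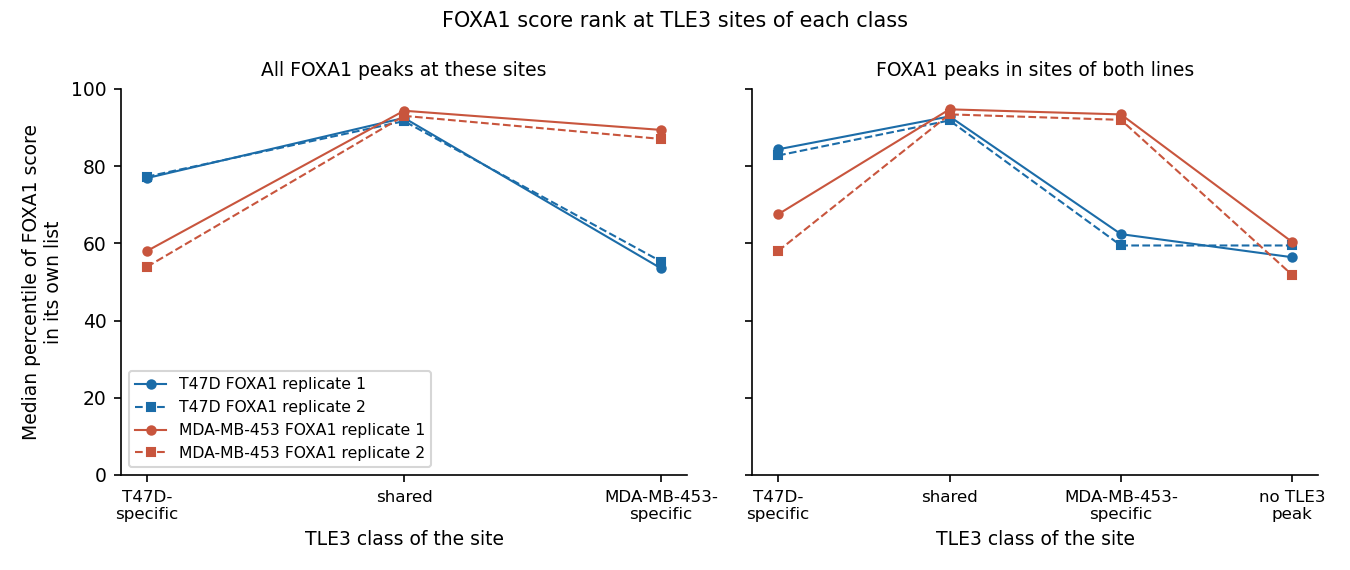
Median percentile of the authors' FOXA1 score (vertical axis) at each class of TLE3 sites in each of the 4 FOXA1 lists of T47D and MDA-MB-453. T47D-specific sites are above MDA-MB-453-specific ones in both T47D lists and below them in both MDA-MB-453 lists.

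The same held where FOXA1 was present in both lines. Of 112670 T47D and 135315 MDA-MB-453 FOXA1 sites, 72993 regions of T47D had FOXA1 in both. TLE3 sites of both lines were at 11102 of these (15.2%), a T47D TLE3 site without an MDA-MB-453 peak at 5391 (7.39%), an MDA-MB-453 TLE3 site without a T47D peak at 2289 (3.14%), and no TLE3 peak of either line at 32606. With TLE3 lists of equal length the counts were 8775 (12.02%), 5117 (7.01%), 4547 (6.23%) and 45977. Within these regions the T47D FOXA1 lists had median percentiles of 84.4 and 82.8 where TLE3 was T47D-specific and 62.4 and 59.5 where it was MDA-MB-453-specific. The MDA-MB-453 FOXA1 lists had 67.5 and 58.0 against 93.4 and 92.0. Regions with no TLE3 peak were at 56.4 and 59.5 in T47D and 60.3 and 51.8 in MDA-MB-453, near the level of the class specific to the other line. The probability that FOXA1 at a T47D-specific site outranked FOXA1 at an MDA-MB-453-specific one was, on the full lists like these percentiles, 0.763 and 0.728 in the T47D lists and 0.0761 and 0.0684 in the MDA-MB-453 lists.

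T47D TLE3 lay at gene ends more often than MDA-MB-453 TLE3 did. Peaks were counted at a gene end if no more than 1 kb lay between the peak's midpoint and the start or far end of any of 59098 annotated genes. They were 18.6% and 21.2% of peaks in T47D TLE3 replicates 1 and 2 (19.9% ± 1.80, SD, n = 2) and 9.61% and 8.12% in MDA-MB-453 (8.86% ± 1.06, SD, n = 2). Both T47D values were above both MDA-MB-453 values, by 11.02 percentage points on average (exact two-sided permutation p = 0.333, the smallest possible; adjusted p = 0.4). At equal length the values were 16.1% and 17.2% in T47D and 7.43% and 8.12% in MDA-MB-453.

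Taken over all scores, the specific classes of the lines moved away from the shared class in opposite directions. Specific and shared peaks of similar score were not compared. In T47D, 27.3% and 26.7% of specific peaks were at a gene end, against 9.90% and 9.68% of shared peaks, a difference of 17.4 and 17.1 percentage points. In MDA-MB-453, 4.94% and 5.04% of specific peaks were, against 9.75% and 9.64% of shared peaks, a difference of −4.81 and −4.60. Over the 4 libraries the mean difference was 6.27, positive in 2 of 4 (exact two-sided sign-flip permutation p = 0.5; adjusted p = 0.5). The lines differed in it by 21.95 points (17.2 ± 0.261 against −4.71 ± 0.148, SD, n = 2 each; exact two-sided permutation p = 0.333, the smallest possible). Because both replicates of a line were scored on the same sites, these SDs do not measure spread between independent sets of sites. Specific and shared shares at equal length were 22.8% and 9.15%, and 22.7% and 9.09%, in T47D, and 5.31% and 9.14%, and 5.30% and 8.99%, in MDA-MB-453.

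**Figure D3:**
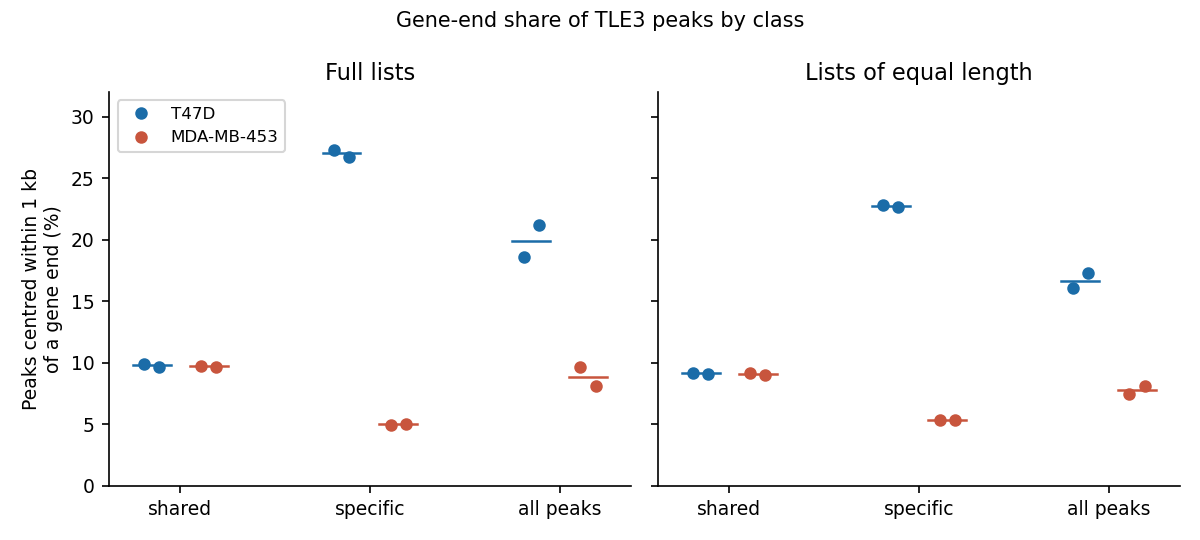
Percent of TLE3 peaks with their centre within 1 kb of a gene end (vertical axis) for specific and shared peaks of each of the 4 TLE3 libraries, on full lists and lists of equal length. Shared peaks lie at 8.99% to 9.90% in all libraries, T47D-specific peaks at 22.7% to 27.3% and MDA-MB-453-specific peaks at 4.94% to 5.31%. Shared peaks of the lines lie in overlapping regions, and specific peaks of both replicates on the same sites. Agreement of libraries within a class therefore follows largely from how the classes were defined.

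Gene starts carried this difference. A midpoint within 1 kb of a RefSeq promoter start was found for 20.6% of T47D-specific sites, 5.31% of shared sites and 1.76% of MDA-MB-453-specific sites, while the far ends of those genes held 3.03%, 2.38% and 1.52%. Counting far ends alone, specific minus shared peaks differed by 0.676 percentage points in T47D and −0.924 in MDA-MB-453. The median distance to the nearest of the 34961 RefSeq promoter starts was 20.6 kb for T47D-specific, 36.7 kb for shared and 57.8 kb for MDA-MB-453-specific sites, and 22.5, 36.8 and 55.0 kb at equal length. The share of sites inside a protein-coding gene varied little, at 48.7%, 49.1% and 46.5%. Sites more than 50 kb and up to 500 kb from a start made up 24.7% of the T47D-specific and 45.8% of the MDA-MB-453-specific class.

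Within the T47D-specific class, closeness to a start went with the FOXA1 status. A gene start lay within 1 kb of 46.4% of the sites with FOXA1 of MDA-MB-453 alone, 28.9% of those with FOXA1 of neither line, 22.3% of those with FOXA1 of both and 8.50% of those with FOXA1 of T47D alone. In the MDA-MB-453-specific class it was 2.34% with FOXA1 of both lines and 1.37% with FOXA1 of MDA-MB-453 alone. Counting both kinds of gene end, the share was 36.8% of T47D-specific sites without FOXA1, 22.6% of those with T47D FOXA1 and 9.26% of shared sites with T47D FOXA1, so gene ends were frequent among T47D-specific sites on FOXA1 too. T47D-specific sites without FOXA1 ranked lower, at median TLE3 percentiles of 26.0 and 59.3 in replicates 1 and 2, against 38.8 and 68.8 with FOXA1 of both lines and 41.5 and 70.8 with FOXA1 of T47D alone.

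Among T47D-specific sites at the end of a protein-coding gene, the highest ranked was inside TBL2 (chromosome 7, 73567724 to 73568514, 581 bp from the end), at TLE3 percentiles 98.2 and 98.6 with T47D FOXA1 at 93.1 and 94.4. The next were at KIAA0408 (98.1 and 98.2) and at THSD4, which encodes a matrix protein of microfibrils (chromosome 15, 71096375 to 71097271, 71 bp from the start, 91.3 and 97.0). SERPINA1, the gene of the protease inhibitor alpha-1 antitrypsin, followed (90.8 and 95.8, chromosome 14, 94390387 to 94391194), and then MICB, a ligand of an activating receptor of natural killer cells (89.8 and 94.7). All 5 overlapped a T47D FOXA1 site. The highest ranked such sites without a FOXA1 site, singled out after their values were seen, ranked lower, and all but CARD9 still overlapped a FOXA1 peak of a single T47D replicate (at 78.0 for PDZK1, and at 0.607 to 29.7 for the others). They lay at B4GALT4 (80.3 and 93.4, 79 bp from the start), near PDZK1 (79.7 and 91.1, 963 bp from the start), at TBC1D5, a regulator of endosome traffic (80.0 and 88.3), near ACAP1 (76.5 and 91.3) and inside CARD9 (79.7 and 87.2). Sites at gene ends in MDA-MB-453 were at MRPL21, a mitochondrial ribosome gene (96.1 and 92.7), THSD8 (95.6 and 87.1), the intestinal homeobox gene ISX (92.5 and 84.9), MYT1 (90.4 and 75.9) and GASK1B (84.6 and 81.6). Each of these 5 had MDA-MB-453 FOXA1 at percentiles of 93.6 to 98.1. All but MRPL21 also overlapped a T47D FOXA1 site, at percentiles from 28.7 (ISX) to 83.1 (GASK1B).

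Shared peaks carried higher TLE3 scores than specific peaks. A shared peak outranked a specific peak of its list with a probability of 0.769 and 0.770 in T47D TLE3 replicates 1 and 2 and 0.699 and 0.681 in MDA-MB-453. It was above 0.5 in 4 of 4 libraries, with a mean of 0.730 (exact two-sided sign-flip permutation p = 0.125, the smallest possible; adjusted p = 0.375). Again the replicates of a line were scored on the same sites. Shared peaks were also wider, with medians of 455 and 641 bp against 323 and 505 bp in T47D, and of 579 and 401 bp against 453 and 311 bp in MDA-MB-453. Width and score moved together, and score at similar width was not compared.

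At equal length the share of shared peaks climbed through the deciles of each list by score. In the lowest decile 10.9%, 10.7%, 11.5% and 13.2% of peaks were shared (T47D replicates 1 and 2, then MDA-MB-453 replicates 1 and 2), and in the highest decile 86.6%, 86.5%, 79.5% and 79.5%. Specific peaks made up most in the middle, at 47.4% to 49.98% of decile 5, and 9.82%, 9.73%, 15.7% and 15.9% of the highest decile. Many of the lowest peaks were in neither class, being peaks that the other replicate of the line lacked or that overlapped a single replicate of the other line. Gene ends held 30.3% and 23.1% of T47D-specific peaks in the lowest decile and 6.73% and 8.14% in the highest. They held 9.47% and 10.4% of all T47D peaks of the highest decile, most of them shared. No gene-end excess of T47D-specific peaks was thus seen in that decile. MDA-MB-453-specific peaks had 5.60% and 4.99% at gene ends in their highest decile, so the lines were closer together among the strongest peaks.

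**Figure D4:**
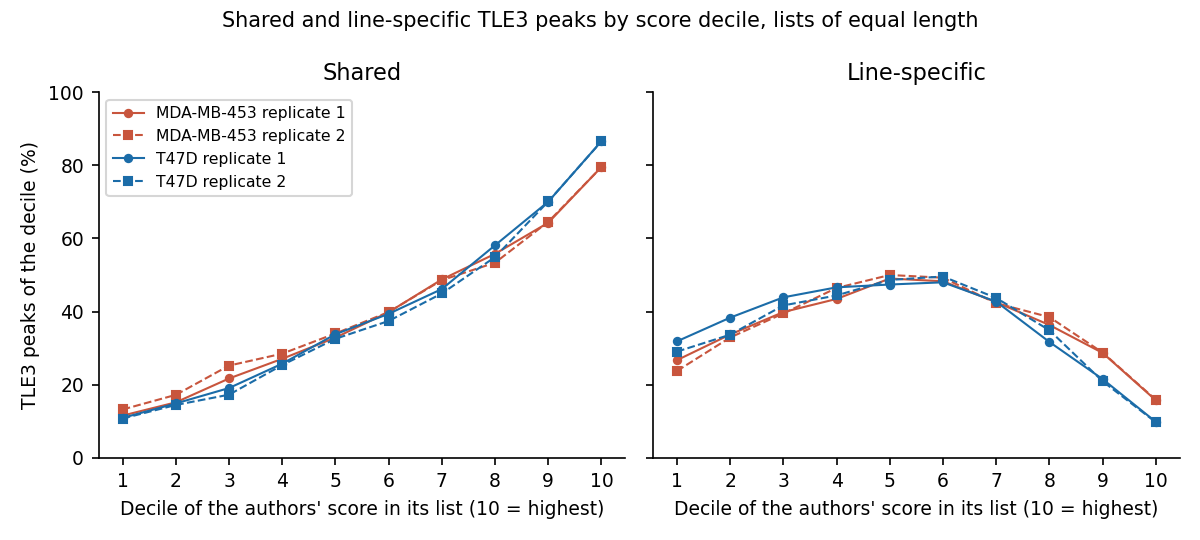
Shared (left) and line-specific (right) TLE3 peaks as a percent of each decile of the equal length lists, for each of the 4 libraries. The horizontal axis is the decile by the authors' score, where 10 is the highest. The shared share climbs from 10.7% to 13.2% in the lowest decile to 79.5% to 86.6% in the highest. Specific peaks make up 9.73% to 15.9% of the highest decile.

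Scores at shared regions were ordered alike within a line and less so between lines. Over 8942 shared regions of equal length lists, Spearman's rho was 0.933 between the T47D replicates, 0.921 between the MDA-MB-453 replicates and 0.372 to 0.392 between lists of different lines. These are descriptions across regions of the genome, which are not replicates.

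Protein-coding genes had T47D-specific TLE3 sites within 50 kb of either end more often than MDA-MB-453-specific ones, so each gene list is set beside all 19974 protein-coding genes. A T47D-specific site lay near 52.5% of all genes, an MDA-MB-453-specific site near 17.9% and a shared site near 39.3%. At equal length the first 2 shares were 40.1% and 23.1%. The median gene had 1 T47D-specific and 0 MDA-MB-453-specific sites on the full lists. On the full lists, 26% of all genes had a site in T47D and none in MDA-MB-453, and 5.99% had the reverse. Counts of list members carry no test, and the 14 lists were not set against one another.

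Estrogen receptor and response genes had T47D-specific sites for 17 of 20 (85%, against 52.5% of all genes) and MDA-MB-453-specific sites for 2 of 20 (10%, against 17.9%), with 49 and 2 such sites in all. At equal length the counts were 19 of 20 (95%, against 40.1%) and 8 of 20 (40%, against 23.1%), so at that length both specific classes were above their background. On the full lists shared sites were also near 17 of 20 (85%, against 39.3%). A site in T47D and none in MDA-MB-453 was near 0 of 20 (0%, against 26%), so these genes were not bound in T47D alone. ESR1, the estrogen receptor gene, had 8 T47D-specific, 1 shared and 0 MDA-MB-453-specific sites, and 6, 1 and 0 at equal length. Its highest T47D-specific site (chromosome 6, 151642908 to 151644031, 13203 bp from the gene) ranked 87.7 and 94.4 in the T47D TLE3 lists, with T47D FOXA1 at 99.1 and 97.4 and no MDA-MB-453 FOXA1 peak. The shared ESR1 site (chromosome 6, 151657733 to 151659531) ranked 92.5 and 97.2 in T47D and 90.4 and 72.2 in MDA-MB-453. GREB1, an estrogen-induced growth gene, had 6 T47D-specific sites and neither a shared nor an MDA-MB-453-specific one on the full lists. At equal length it had 4 T47D-specific, 0 shared and 1 MDA-MB-453-specific site. Its highest T47D-specific site (chromosome 2, 11498381 to 11499079, inside the gene) ranked 91.7 and 96.4 with T47D FOXA1 at 92.2 and 79.4.

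PGR had 5 T47D-specific sites and 1 shared site, and at equal length 2 T47D-specific, 1 shared and 2 MDA-MB-453-specific sites. The PGR promoter printed above lay under a site at TLE3 percentiles 53.1 and 84.6, with FOXA1 at 87.8 and 89.7 in T47D and 29.98 and 33.0 in MDA-MB-453. TFF1, a secreted trefoil peptide of estrogen-treated cells, had 2 T47D-specific and 3 shared sites, and its highest shared site ranked 70.4 and 92.1 in T47D and 88.8 and 83.8 in MDA-MB-453. Other members with T47D-specific sites were CCND1, the cyclin D1 gene, with 4, and SIAH2, a ubiquitin ligase gene, with 3, while CXCL12 had no site of any of these classes. XBP1, a secretory stress factor, and MYB had the highest ranked shared sites, at 99.0 and 99.4 in T47D and 97.3 and 96.1 in MDA-MB-453 for XBP1, and 97.6 and 98.5 against 92.4 and 90.1 for MYB.

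Luminal identity genes had a shared site for 22 of 22 (100%, against 39.3% of all genes). A T47D-specific site was near 20 of 22 (90.9%, against 52.5%) and an MDA-MB-453-specific site near 4 of 22 (18.2%, near the background of 17.9%). At equal length MDA-MB-453-specific sites were near 10 of 22 (45.5%, against 23.1%) and T47D-specific sites again near 20 (90.9%, against 40.1%). FOXA1 itself had 6 T47D-specific, 6 shared and 0 MDA-MB-453-specific sites, and 8, 4 and 2 at equal length. Its highest shared site, 46013 bp from the gene (chromosome 14, 37640709 to 37641816), ranked 99.6, 99.8, 99.7 and 99.7 in the 4 lists. GATA3, a luminal zinc finger factor, had 3, 2 and 1 in the same order, and 2, 2 and 1 at equal length. SPDEF, a luminal ETS factor, had 6 shared sites and no specific one on the full lists, and 6 shared, 1 T47D-specific and 2 MDA-MB-453-specific at equal length. The keratin genes KRT8, KRT18 and KRT19 had 3, 2 and 5 T47D-specific sites, 4, 3 and 2 shared sites and 0 MDA-MB-453-specific ones on the full lists. At equal length KRT8 and KRT18 each had 1 MDA-MB-453-specific site. KRT8 and KRT18 lie close together and had the same highest T47D-specific site. EPCAM, an epithelial adhesion gene, had 1 shared site at percentiles of 38.0 and 75.8 in T47D and 78.0 and 48.2 in MDA-MB-453.

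Androgen response and apocrine genes had T47D-specific sites for 14 of 21 (66.7%, against 52.5% of all genes). MDA-MB-453-specific sites were near 8 of 21 (38.1%, against 17.9%). At equal length the counts were 13 (61.9%, against 40.1%) and 10 (47.6%, against 23.1%). PIP, the prolactin-induced protein gene of apocrine cells, had 5 T47D-specific and 3 shared sites, the highest shared one at 98.6 and 99.1 in T47D and 94.0 and 92.0 in MDA-MB-453. SLC45A3, a prostate-type androgen target, had a shared site at 99.4 and 99.8 in MDA-MB-453 and 94.4 and 96.7 in T47D. UGT2B28 had 1 shared and 1 MDA-MB-453-specific site. The shared promoter sites were at 83.1 and 90.2 in T47D and 98.6 and 97.4 in MDA-MB-453 for UGT2B15, and at 51.9 and 74.5 and at 99.1 and 97.1 for UGT2B11. Because the lists differ in length, such percentiles cannot show whether binding changed between lines, here or at the other shared sites. The UGT2B15 and UGT2B11 promoters each held the forkhead letters at 2 places. UGT2B genes are near-identical copies, so the authors' mapping could have divided or misplaced their reads.

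ERBB receptor and ligand genes had T47D-specific sites for 12 of 15 (80%, against 52.5% of all genes). MDA-MB-453-specific sites were near 4 of 15 (26.7%, against 17.9%). At equal length the counts were 10 (66.7%, against 40.1%) and 5 (33.3%, against 23.1%). On the full lists a site in T47D and none in MDA-MB-453 was near 5 of 15 (33.3%, against 26%). The reverse was near 1 of 15 (6.67%, against 5.99%). ERBB2 had 7 shared sites and 1 T47D-specific one, and its highest shared site, inside the gene, ranked 98.0 and 99.3 in T47D and 97.5 and 97.7 in MDA-MB-453. ERBB3, its dimerisation partner, had 6 T47D-specific sites and no shared one, the highest at 62.0 and 82.0. ERBB4 had 7 T47D-specific, 4 shared and 1 MDA-MB-453-specific sites. The ligand genes TGFA (75.5 and 81.7, no FOXA1 site) and HBEGF (53.2 and 81.4, the promoter printed above) had T47D-specific sites, and NRG2, a neuregulin gene, an MDA-MB-453-specific one (80.3 and 66.5).

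The genes of TLE3's own family and its corepressors had T47D-specific sites for 10 of 15 (66.7%, against 52.5% of all genes). MDA-MB-453-specific sites were near 5 of 15 (33.3%, against 17.9%) and shared sites near 11 of 15 (73.3%, against 39.3%). At equal length the specific counts were 7 (46.7%, against 40.1%) and 6 (40%, against 23.1%). TLE3 had 3 T47D-specific, 3 shared and 2 MDA-MB-453-specific sites at its own gene, and its highest shared site (chromosome 15, 70093207 to 70094177, 1097 bp from a start) ranked 99.7 and 99.9 in T47D and 93.8 and 83.0 in MDA-MB-453. TLE4 had 2 MDA-MB-453-specific sites and no T47D site, the highest at 86.3 and 76.3 with no T47D FOXA1 peak. SIN3A, a scaffold of deacetylase complexes, had 2 T47D-specific sites and no MDA-MB-453 site. CTBP1 had 1 on its promoter without FOXA1, at percentiles of 21.7 and 36.2.

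Groucho partner genes, such as RUNX, HES and TCF members, had T47D-specific sites for 14 of 20 (70%, against 52.5% of all genes). MDA-MB-453-specific sites were near 7 of 20 (35%, against 17.9%). At equal length the counts were 14 (70%, against 40.1%) and 8 (40%, against 23.1%). HES1, a NOTCH target and repressor, had 4 T47D-specific and 2 shared sites. RUNX2 had 4 T47D-specific and 1 MDA-MB-453-specific site, and TCF7 and TCF7L2 had 1 and 2 T47D-specific sites and no MDA-MB-453 site. Partner factors of luminal enhancers had T47D-specific sites for 14 of 16 (87.5%) and MDA-MB-453-specific sites for 9 of 16 (56.2%). At equal length these were 12 (75%) and 5 (31.2%), and the shares of all genes are those given for the list before. TFAP2C, an AP-2 factor, had 4 T47D-specific sites and no MDA-MB-453 site, the highest at 82.6 and 94.0. The grainyhead factor gene GRHL2 had 6 T47D-specific sites, 2 shared and 1 MDA-MB-453-specific.

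WNT target and feedback genes had the reverse order at equal length. T47D-specific sites were near 2 of 18 (11.1%, against 40.1% of all genes) and MDA-MB-453-specific sites near 8 of 18 (44.4%, against 23.1%), and on the full lists each was near 7 of 18 (38.9%, against 52.5% and 17.9%). NKD1, an inhibitor that WNT signalling induces, had 3 MDA-MB-453-specific sites and no other. Its highest (chromosome 16, 50597048 to 50597495) ranked 85.4 and 85.4 in MDA-MB-453 TLE3, with FOXA1 at 99.8 and 99.8 in MDA-MB-453 and 80.4 and 77.1 in T47D. TNFRSF19, a WNT-induced receptor gene, had 1 MDA-MB-453-specific site (81.1 and 76.5), and SFRP1, a secreted WNT inhibitor gene, had 2. AXIN2, a feedback scaffold gene, had 2 MDA-MB-453-specific, 1 shared and 1 T47D-specific site. RNF43 went the other way, with 3 T47D-specific and 2 shared sites. The T47D-specific site on its promoter ranked 90.8 and 96.1, with T47D FOXA1 at 86.2 and 86.1 and no FOXA1 peak in MDA-MB-453.

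NOTCH receptor and ligand genes depended on list length. On the full lists T47D-specific sites were near 8 of 12 (66.7%, against 52.5%) and MDA-MB-453-specific sites near 3 of 12 (25%, against 17.9%). At equal length they were near 4 (33.3%, against 40.1%) and 6 (50%, against 23.1%). A site in MDA-MB-453 and none in T47D was near 2 of 12 on the full lists and 6 of 12 at equal length, against 5.99% and 9.44% of all genes. MAML2, a NOTCH coactivator gene, had 3 T47D-specific sites and a shared one at 99.7 and 99.7 in T47D and 97.0 and 96.7 in MDA-MB-453. JAG2, a ligand gene, had 1 T47D-specific site without FOXA1, at 64.3 and 82.8. The NOTCH4 gene had 2 T47D-specific and 1 MDA-MB-453-specific sites, and 0 and 1 at equal length.

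**Figure D5:**
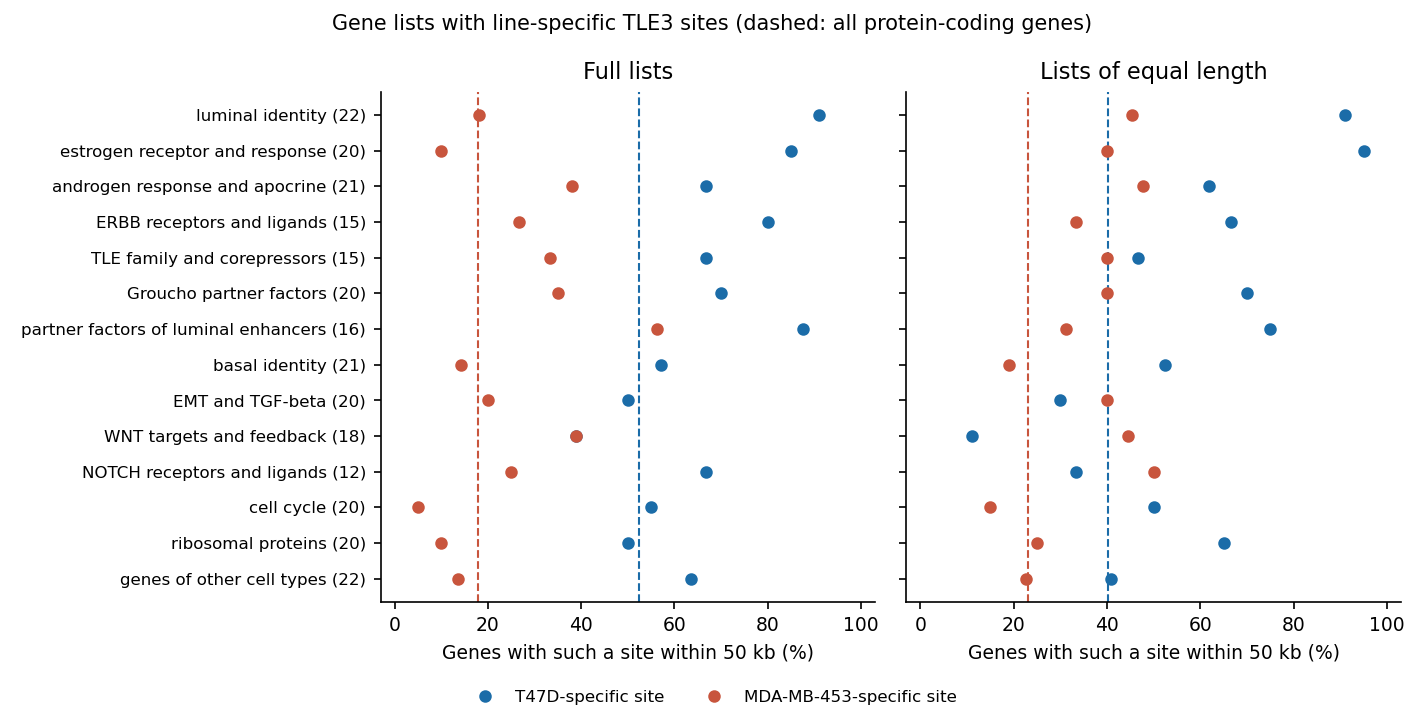
Percent of the members of each gene list (number of members in brackets) with a T47D-specific or an MDA-MB-453-specific TLE3 site within 50 kb of either gene end, on full lists (left) and lists of equal length (right). Dashed lines are all protein-coding genes, at 52.5% and 17.9% (left) and 40.1% and 23.1% (right), and the WNT list is at 11.1% and 44.4% at equal length.

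Basal identity genes had T47D-specific sites for 12 of 21 (57.1%, against 52.5% of all genes) and MDA-MB-453-specific sites for 3 of 21 (14.3%, against 17.9%). At equal length the counts were 11 (52.4%, against 40.1%) and 4 (19.0%, against 23.1%). KRT5, a basal keratin gene, had no TLE3 site, and KRT14, another, had 2 T47D-specific and 2 shared sites. The highest shared site of KRT14 was also that of the luminal KRT19, since a site is counted for every gene within 50 kb. TP63, a basal lineage factor gene, had 6 shared, 3 T47D-specific and 1 MDA-MB-453-specific sites. Epithelial-mesenchymal transition and transforming growth factor beta genes had 10 of 20 (50%, against 52.5% of all genes) and 4 of 20 (20%, against 17.9%). At equal length they had 6 (30%, against 40.1%) and 8 (40%, against 23.1%). Cell cycle genes had 11 (55%) and 1 (5%) of 20 on the full lists, and 10 (50%) and 3 (15%) at equal length. Ribosomal protein genes had 10 (50%) and 2 (10%) of 20, and 13 (65%) and 5 (25%) at equal length. The shares of all genes beside both lists are those just given.

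Genes of cell types other than breast had T47D-specific sites for 14 of 22 (63.6%, against 52.5%) and shared sites for 4 of 22 (18.2%, against 39.3%). At equal length 9 of 22 had a T47D-specific site (40.9%, against 40.1%). PTPRC, a leukocyte marker, had 3 T47D-specific sites, COL1A1, a fibroblast collagen gene, had 2, PECAM1, an endothelial marker, had 1 of each specific class, and the liver gene ALB had 1 T47D-specific and 2 MDA-MB-453-specific sites. A specific site near a gene thus does not mark it as a gene of breast cells. Peaks measure no RNA, so the labelled cell type could not be checked against expression.

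Among the genes with the most T47D-specific sites within 50 kb of either end were SERPINA1 with 12, and C16orf74, MED13L (a subunit gene of the Mediator kinase module) and RIPOR3 with 10 each, and none of these 4 had an MDA-MB-453-specific site. Those with the most MDA-MB-453-specific sites had fewer. They included PLCB1, a phospholipase C gene, with 5 and 2 T47D-specific ones, and APOOL and CA10 with 4 each and 0 and 3 T47D-specific ones.

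SKBR3 was not used to form the classes, and its TLE3 replicates differed in where they overlapped them. A peak of SKBR3 TLE3 replicate 1 lay at 55.0% of shared, 16.8% of T47D-specific and 11.99% of MDA-MB-453-specific sites, and at 60.6%, 27.3% and 18.5% at equal length. SKBR3 FOXA1 sites lay at 83.0%, 47.4% and 43.9%. The library labelled SKBR3 TLE3 replicate 2 stands apart from the others, with 94363 peaks against 21149 in replicate 1, a median score of 36.8 against 13.8 and a median width of 629 against 326 bp. Its peaks lay at 25.7% of shared, 34.5% of T47D-specific and 7.41% of MDA-MB-453-specific sites. They lay at 69.2% of the T47D-specific sites at gene ends and at 21.8% of those elsewhere, where replicate 1 had 12.3% and 18.5%.

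The ratio of T47D-specific to MDA-MB-453-specific sites differed between chromosomes. It was 1.80 over all chromosomes, highest on chromosomes 19 (412 to 51 sites, 8.08) and 17 (545 to 110, 4.95), and lowest on chromosomes X (201 to 336, 0.598) and 4 (412 to 518, 0.795). At equal length it was 0.978 over all, 3.37 on chromosome 19, 2.38 on chromosome 17, 0.469 on chromosome 4 and 0.380 on chromosome X. The ratio of all FOXA1 sites of the lines was 0.833 over all chromosomes, 0.900 on chromosome 19, 1.04 on chromosome 17, 0.635 on chromosome 4 and 0.465 on chromosome X. TLE3 and FOXA1 ratios were thus both below their overall values on chromosomes X and 4, and chromosome 19 was high for TLE3 and near the overall value for FOXA1. Copy number of the lines was not analysed here, and its part in these ratios was not tested.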

How the data were processed

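ChIP-seq peak lists of TLE3 and FOXA1 in T47D and MDA-MB-453, and of SKBR3 as an outside reference, were used as deposited, and 6 input samples were not used here. Per the submitters' processing notes, the authors used Trim Galore, BWA 0.7.5a, SAMtools and MACS2 with hg38. No source used here gives the caller's settings and control or the quantity behind the score. Per the labels' protocols, cells for TLE3 had an additional crosslinking step before formaldehyde. The lists, 1 per library, hold positions and a score that the authors deposited for each peak (lowest values about 2), compared only as ranks within a list. Depth is unknown, so no interval could be given.

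Peaks on chromosomes 1 to 22 and X were kept (15 others dropped). Overlap was at least 1 bp. Equal length lists held the 22706 highest scored peaks. Genes (59098, of which 19974 protein-coding) and 34961 promoters came from RefSeq GRCh38.p14, and all 257 list genes matched. Tests were exact permutations over libraries with Benjamini-Hochberg adjustment over 6 tests, and the threshold was 0.05. Named genes were those closest to the 5 top sites by rank in every class and among gene-end sites, the 5 with most specific sites, the highest ranked of each of the 14 lists (up to 3 with sites of 1 specific class alone, 2 shared) and 14 genes fixed by name, of which some are printed and some are not reported here. Other list members, the promoters and the sites without FOXA1 were picked after their values were seen. The members and lists were chosen with earlier results of these data known. Alternatives were the score (upper 50%), overlap, windows, gene lists, either replicate, equal FOXA1 lists (147283 peaks), dense bins and each library left out. Gene starts, far ends and peaks outside gene ends were added after seeing the data. Code was tested on simulated data and used Python 3.11.15, numpy 2.4.6, pandas 2.3.3 and matplotlib 3.10.9.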

Additional observations from a re-analysis of the deposited data

Results flagged for a closer look

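Taken over all scores, the gene-end share of specific minus shared TLE3 peaks differed in sign between the lines. It was 17.2 ± 0.261 percentage points in T47D and −4.71 ± 0.148 in MDA-MB-453 (SD, n = 2 each), a difference of 21.95 in which both T47D libraries were positive and both MDA-MB-453 libraries negative (exact two-sided permutation p = 0.333, the smallest possible). The probability that FOXA1 at a T47D-specific TLE3 site outranks FOXA1 at an MDA-MB-453-specific one differed by 0.573 between the FOXA1 lists of the lines, at 0.694 ± 0.00639 in T47D and 0.122 ± 0.00925 in MDA-MB-453 (SD, n = 2 each; exact two-sided permutation p = 0.333, the smallest possible). Both were looked at because the effect in one line lies on the other side of no difference from the effect in the other line. The replicates of a line were scored at the same TLE3 sites, so these SDs do not measure spread between independent sets of sites.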

How the results depend on the processing

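The share of T47D sites specific to T47D (40.0%) was 59.3% with sites from either replicate, and between 40.4% and 59.0% with 1 library left out. The share of MDA-MB-453 sites specific to MDA-MB-453 (29.0%) was 44.2% with lists of equal length, 41.0% with sites from either replicate, and between 29.4% and 46.2% with 1 library left out. It moved by over 1.5 times without T47D TLE3 replicate 2 (46.2%), and the T47D share was 59.0% without T47D TLE3 replicate 1 and 58.9% without MDA-MB-453 TLE3 replicate 1. These alternatives change the lengths of the lists compared. The share of shared sites moved too, to 25.1% in T47D and 70.6% in MDA-MB-453 without T47D TLE3 replicate 1, and to 59.6% and 40.4% without MDA-MB-453 TLE3 replicate 2. The gene-end difference of specific minus shared peaks over the 4 libraries, 6.27 percentage points, reversed to −0.124 at the far ends of genes alone and otherwise ranged from 3.17 to 8.27. In that setting the difference between the lines in gene-end share was 0.695 points. It was 9.75 to 12.3 with 1 library left out. The own-line FOXA1 difference ranged from −26.4 to −9.06, the other-line FOXA1 difference from −56.1 to −37.0, the score probability from 0.7002 to 0.731 and the FOXA1 rank difference from 0.399 to 0.657, each with the same sign throughout. Within 10 kb, 26.0% of genes had a T47D-specific site and 13.6% a shared site, and at equal length 32.7% had a shared site within 50 kb. With the replicate number as a block, the gene-end difference was 11.02 and the own-line FOXA1 difference −19.5 (exact permutation p = 0.5 for both, the smallest that 2 pairs allow). Deviations of same-numbered libraries correlated at −0.0789 over 2855 bins of 1 Mb, and the labels name no shared batch. Without read counts, weak peaks of the shorter lists could not be told from absent ones.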
